A study of Homo sapiens with 18 samples.

Results

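The genes GATA3, FOXA1, XBP1, SPDEF, AGR2, AGR3, TFF3, KRT8, KRT18 and KRT19 were chosen by name as transcription factors, secretory proteins and keratins of the luminal breast cell, and are 10 of the 16410 genes listed in either of the 2 deposited tables. All 10 were listed in T47D, and 7 were listed in MDA-MB-231, where FOXA1, AGR3 and TFF3 were not listed. Their RNA was measured by sequencing in these 2 human breast cancer cell lines, both carrying a G0S2 gene that doxycycline switches on. The G0S2 protein blocks the lipase that starts the breakdown of stored fat, and the title of the series names antiestrogenic and migratory responses to it. In T47D, which is labelled estrogen receptor positive, the induced libraries had 3 or 15 days of doxycycline at 0.5 ug/ml, and the control libraries received none (day 0). The groups of MDA-MB-231, labelled estrogen receptor negative, were the same, so 6 groups of 3 libraries made 18 in all. The sources used here do not give the promoter driving G0S2 or whether a line was 1 clone. Every group carried the inducible construct and none received doxycycline without it. G0S2 and doxycycline effects therefore cannot be told apart, and no group shows the lines without the vector. The labels give no untreated group at day 3 or day 15, so time in culture cannot be told apart from these effects either. No sample label states that a group's 3 libraries were grown as separate cultures, and p-values cover only the spread among them, technical or not. The series' design text speaks of triplicates of parental and Aza-resistant lines, which the sample labels do not mention, and the labels were followed.

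Luminal cells line the ducts and lobules of the breast and are the cells that make and secrete milk. GATA3 and FOXA1 are DNA-binding proteins that open chromatin for the estrogen receptor, while XBP1 and SPDEF drive the secretory machinery. AGR2 and AGR3 are protein disulfide isomerase relatives of the endoplasmic reticulum, TFF3 is a small secreted trefoil protein, and KRT8, KRT18 and KRT19 build the keratin filaments of simple epithelia. Several of these genes, AGR2, AGR3 and TFF3 among them, are known as estrogen-responsive in breast cancer cells.

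The depth of a library was 40.1 M to 51.0 M reads for T47D and 37.0 M to 52.4 M for MDA-MB-231. Levels are given as CPM, the reads of a gene scaled to a common library size. G0S2 measured 25.48, 25.02 and 25.09 CPM in the control libraries of MDA-MB-231, 1484, 1506 and 1429 CPM at day 3, and 1209, 1294 and 1103 CPM at day 15. In T47D it measured 0.8998, 0.2769 and 0.3757 CPM in the control libraries, 882.7, 855.3 and 844.3 CPM at day 3, and 766.4, 992.8 and 735.9 CPM at day 15. Every induced library thus exceeded every control library of its line. In T47D the day 3 and day 15 levels overlapped, so G0S2 cannot check those labels there. Of the 9 luminal markers checked, T47D listed all 9 and MDA-MB-231 listed 6, lacking ESR1, PGR and FOXA1. The mesenchymal protein VIM was listed in MDA-MB-231, at 2248 to 2302 CPM in the control libraries, and was not listed in T47D. Replicate 2 of T47D at day 15 stood apart: its read counts differed from those of replicates 1 and 3 by a chi-square per degree of freedom of 14.5 and 23.6, against 1.74 to 5.92 for the other pairs of replicates. It also had the highest G0S2 level of its group, and the member calls and list counts of T47D at day 15 that change without it are given both ways.

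All 7 genes listed in both lines were higher in T47D in every library, as a description across separately scaled tables. AGR2 averaged 1496 ± 18.9 CPM in control T47D and 5.862 ± 0.91 CPM in control MDA-MB-231 (SD, n = 3 each), a ratio of 255. The ratio of T47D to MDA-MB-231 was 64.5 for GATA3, 25.1 for XBP1, 13.9 for KRT19, 6.42 for SPDEF, 6.09 for KRT8 and 3.41 for KRT18. Among these 7 genes the secretory gene AGR2 and the factor GATA3 thus separated the lines most, and KRT18 least. FOXA1, AGR3 and TFF3, not listed in MDA-MB-231, have no ratio. The 10 genes took 1.05% to 1.08% of all reads in control T47D, and the 7 listed ones 0.0981% to 0.104% in control MDA-MB-231.

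**Figure D1:**
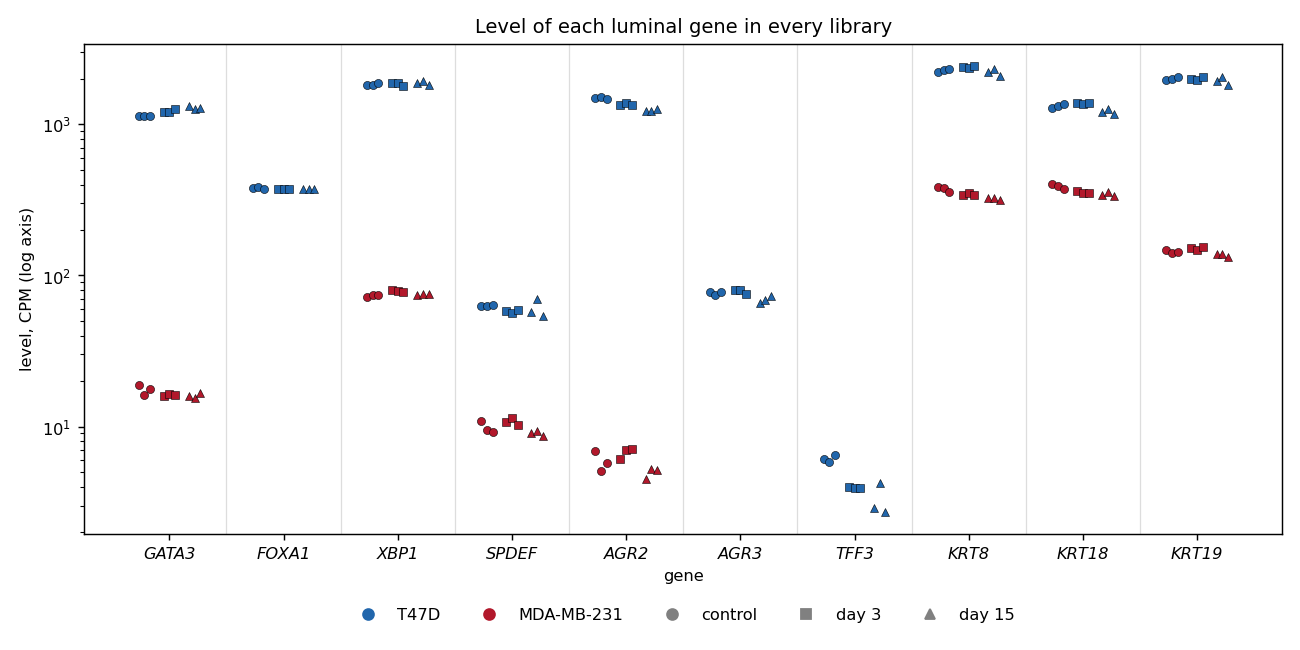
Level of each gene in CPM on a log axis, 1 point per library, with T47D in blue and MDA-MB-231 in red, and control, day 3 and day 15 from left to right within a gene. The gap between the lines, 255-fold for AGR2 and 3.41-fold for KRT18 in the control libraries, is wider than the shifts with days of doxycycline.

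Per kilobase of transcript, which allows genes to be compared with each other, KRT19 was the most abundant of the 10 in control T47D at 1440 ± 36.5 CPM per kilobase (SD, n = 3). KRT8 followed at 1070 ± 26.9 and XBP1 at 999 ± 11.5 CPM per kilobase. KRT18 at 848 ± 25.3 and AGR2 at 841 ± 10.6 CPM per kilobase overlapped in their libraries and had no order. GATA3 stood at 429 ± 2.72, FOXA1 at 132 ± 1.86, AGR3 at 103 ± 2.59, SPDEF at 33.5 ± 0.302 and TFF3 at 5.55 ± 0.323 CPM per kilobase, with no overlap between these neighbours. In control MDA-MB-231 the order began with KRT18, at 248 ± 9.54 CPM per kilobase, and went on through KRT8, KRT19, XBP1, GATA3 and SPDEF to AGR2 at 3.30 ± 0.512. No 2 neighbours in the order of MDA-MB-231 overlapped. The luminal secretory gene AGR2 was therefore level with a keratin in T47D and the lowest of the 7 in MDA-MB-231.

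A gene was called where limma, fitted to all libraries of a line, gave a Benjamini-Hochberg adjusted p under 0.05 over every gene of its table, and a fold is given on the log2 scale with its standard error (SE). In T47D at day 15 against control, 1 of the 10 genes was higher (GATA3) and 4 were lower (AGR2, AGR3, TFF3 and KRT18), beside 11.2% of all 14768 genes called, and 6.23% called lower. At day 3, 2 of the 10 were lower (AGR2 and TFF3), beside 1.88% of all genes called and 0.718% lower. In MDA-MB-231 the same 2 of 7 genes, KRT8 and KRT18, were lower at both times, beside 1.77% of all 14308 genes called and 0.874% lower at day 3, and 8.20% called and 4.77% lower at day 15. Groups whose libraries do not overlap are common: in MDA-MB-231 20.5% of all genes had such groups at day 3 and 24.3% at day 15, set against control, and 25.1% between the times, and in T47D 21.9%, 26.3% and 22.4%. The median fold of the listed members was -0.07 in T47D (-0.12 without replicate 2 of day 15) and -0.13 in MDA-MB-231 at day 15, beside 0 for all genes. Both times share their control libraries. Of the 23 calls of members in the 8 comparisons made, 18 were lost when limma was run without trend and robust moderation of the variances, and 5 held in every alternative run: AGR2, TFF3 and GATA3 in T47D and KRT8 in MDA-MB-231 at day 15 against control, and the GATA3 difference between lines at day 15. In these bulk samples, fewer cells that express a gene and less of its RNA per cell cannot be told apart.

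**Figure D2:**
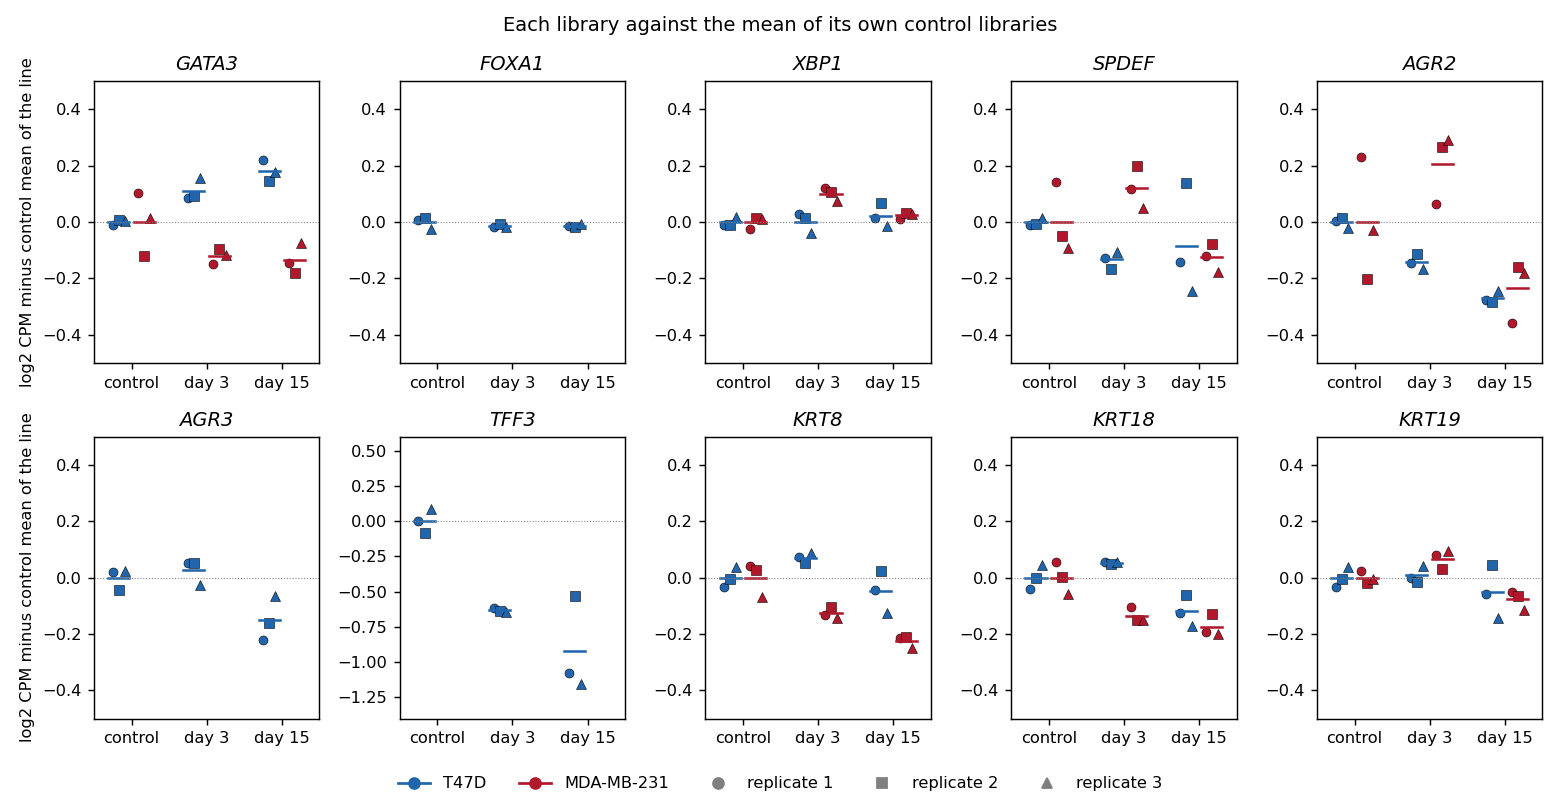
Log2 CPM of each library minus the mean of the control libraries of its own line, with T47D in blue and MDA-MB-231 in red, bars at group means and symbols for replicates. The vertical scale is shared except for TFF3, whose panel reaches further down, and replicate 2 of T47D day 15 (square) lies above its group for SPDEF, TFF3 and the keratins.

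GATA3, on chromosome 10 (chr10:8045378-8075203, plus strand, GENCODE release 29 on GRCh38), specifies and maintains luminal cells. In T47D it measured 1129, 1143 and 1139 CPM in the control libraries, 1207, 1212 and 1267 CPM at day 3, and 1324, 1259 and 1286 CPM at day 15. Every induced library exceeded every control library, while days 3 and 15 overlapped. The day 15 fold was 0.18 (SE 0.0288, adjusted p = 0.000869, limma), a rise of 13.4% that was called in every alternative run. At day 3 it was 0.11 (SE 0.0288, adjusted p = 0.0788), which was not called.

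In MDA-MB-231, GATA3 measured 18.90, 16.18 and 17.77 CPM in the control libraries, 15.84, 16.44 and 16.19 CPM at day 3, and 15.87, 15.52 and 16.68 CPM at day 15. Control replicate 2 lay within the induced values, and the day 15 fold of -0.13 (SE 0.0599, adjusted p = 0.169) was not called. The responses of the lines differed: T47D minus MDA-MB-231 was 0.32 at day 15 (SE 0.0584, adjusted p = 0.00109, limma interaction), beside 9.44% of the 12666 genes in both tables called, 4.07% with the T47D response higher, and 2 of 7 members were so called. The day 15 difference was called in every alternative run. At day 3 the difference was 0.23 (SE 0.0584, adjusted p = 0.0326), beside 2.46% of genes called and 1.41% higher, where GATA3, KRT8 and KRT18 were the 3 of 7 members called. It was lost without any 1 of 11 of the 12 libraries involved (adjusted p = 0.0525 to 0.118), every one but MDA-MB-231 control replicate 2, and under median scaling (adjusted p = 0.0792).

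The antisense transcript GATA3-AS1 lies wholly inside GATA3 on the opposite strand, over 3035 bases. It rose with GATA3 in T47D at day 15, by 0.27 (SE 0.0425, adjusted p = 0.000819), with 85.38, 77.79 and 83.58 CPM at day 15 against 68.02, 67.75 and 68.74 CPM in the control libraries. The sources used here do not give the strand setting, so reads from any stretch counted for both genes could not be assigned with certainty. GATA3 extends beyond GATA3-AS1 on both sides, and whether their exons overlap was not checked. GATA3-AS1 held 68.17 CPM on average in control T47D and GATA3 held 1137 CPM.

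FOXA1 (chr14:37589984-37596059, minus strand), a pioneer factor that opens chromatin for steroid receptors, was not called at either time in T47D, where it measured 380.6, 382.4 and 372.4 CPM in the control libraries, 373.6, 376.4 and 373.9 CPM at day 3, and 374.9, 374.0 and 376.4 CPM at day 15. The groups overlapped, and the day 15 fold was -0.01 with a 95% interval of -0.07 to 0.04. FOXA1 overlaps TTC6 on the opposite strand.

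XBP1 (chr22:28794555-28800597, minus strand), the factor of the unfolded protein response that expands the secretory apparatus, had a day 15 fold of 0.02 in T47D, with a 95% interval of -0.04 to 0.08. Its levels in T47D were 1836, 1836 and 1873 CPM in the control libraries, 1887, 1868 and 1799 CPM at day 3, and 1866, 1939 and 1830 CPM at day 15, which overlapped throughout. In MDA-MB-231 it measured 79.92, 79.08 and 77.42 CPM at day 3 against 72.26, 74.17 and 74.15 CPM in the control libraries. Those groups did not overlap, but the fold of 0.10 (SE 0.0307, adjusted p = 0.1) was not called. At day 15 it overlapped the control libraries, at 74.15 to 75.19 CPM against 72.26 to 74.17 CPM.

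SPDEF (chr6:34537802-34556333, minus strand), an ETS factor of secretory and goblet cells, depended on 1 library in T47D. It measured 63.05, 63.18 and 64.10 CPM in the control libraries, 58.13, 56.56 and 58.92 CPM at day 3, and 57.48, 69.76 and 53.56 CPM at day 15. Replicate 2 of day 15 was above every control library and the other 2 were below every one. The day 15 fold was -0.08 (SE 0.0739, adjusted p = 0.554) with all libraries and -0.19 (SE 0.0405, adjusted p = 0.000558) without replicate 2. The day 3 libraries all lay below the control libraries, with a fold of -0.13 (SE 0.0739, adjusted p = 0.617) that was not called.

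In MDA-MB-231, SPDEF measured 10.87, 9.515 and 9.238 CPM in the control libraries, 10.68, 11.33 and 10.20 CPM at day 3, and 9.061, 9.327 and 8.697 CPM at day 15. It was not called against control at either time. Between the times it was lower at day 15 than at day 3 by a fold of -0.25 (SE 0.0742, adjusted p = 0.0487), beside 5.33% of all genes called and 2.86% lower in that comparison. There 4 of 7 members were lower, SPDEF, AGR2, KRT8 and KRT19. That call was lost without any 1 of the 3 day 3 libraries or without day 15 replicate 1 or 3 (adjusted p = 0.0524 to 0.23).

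AGR2 (chr7:16791811-16833433, minus strand), the disulfide isomerase needed to fold mucins, fell in T47D. It measured 1500, 1512 and 1475 CPM in the control libraries, 1352, 1384 and 1334 CPM at day 3, and 1234, 1229 and 1262 CPM at day 15. The 3 groups did not overlap, and each later group lay wholly below the earlier one. The fold was -0.27 at day 15 (SE 0.0261, adjusted p = 9.7e-06, limma), a change of -17.0% that was called in every alternative run. At day 3 it was -0.14 (SE 0.0261, adjusted p = 0.00759), a call lost without control replicate 1 or 2 or day 3 replicate 1 or 3 (adjusted p = 0.0544 to 0.0892). Day 15 was also below day 3 in T47D, with a fold of -0.13 (SE 0.0261, adjusted p = 0.0092), beside 5.58% of all genes called and 3.35% lower in that comparison, where 3 of 10 members were lower, and this call was lost without day 3 replicate 1 or 2 (adjusted p = 0.0542 and 0.0827).

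AGR2 in MDA-MB-231 was carried by 187 to 330 reads a library. It measured 6.842, 5.043 and 5.700 CPM in the control libraries, 6.086, 7.0 and 7.125 CPM at day 3, and 4.518, 5.198 and 5.125 CPM at day 15. The control libraries spanned most of that range, and neither time was called against control. Day 15 lay wholly below day 3, with a fold of -0.44 (SE 0.103, adjusted p = 0.0134) that was lost without day 3 replicate 2 or 3 or day 15 replicate 1 (adjusted p = 0.0513 to 0.0887). The difference between the lines in the AGR2 response was -0.35 at day 3 (SE 0.114, adjusted p = 0.158) and -0.04 at day 15 (SE 0.114, adjusted p = 0.892), and neither was called. Without MDA-MB-231 control replicate 1, the highest of its group, the day 3 difference was -0.46 (adjusted p = 0.00355) and was called.

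AGR3 (chr7:16859405-16881987, minus strand) is the nearest relative of AGR2 and lies 26.0 kb from it on the same strand. It measured 77.94, 74.62 and 78.03 CPM in the control libraries of T47D, 79.68, 79.71 and 75.42 CPM at day 3, and 65.91, 68.66 and 73.51 CPM at day 15. The day 15 libraries lay below all control and day 3 libraries, with a fold against control of -0.15 (SE 0.0447, adjusted p = 0.0459). That call was lost without any 1 of the 3 control libraries or without day 15 replicate 1 (adjusted p = 0.0777 to 0.203). Against day 3 the day 15 fold was -0.18 (SE 0.0447, adjusted p = 0.0348), lost without any 1 of the 3 day 3 libraries or day 15 replicate 1 (adjusted p = 0.0546 to 0.171). Median scaling of the libraries also lost both calls (adjusted p = 0.0535 against control and 0.0693 against day 3). At day 3, when AGR2 was called lower, AGR3 overlapped the control libraries, with a fold of 0.03 and a 95% interval of -0.07 to 0.12.

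The starts of AGR2 and AGR3 are shown because these neighbours were both lower in T47D at day 15. The windows run from 250 bases before to 50 bases after the start, on the minus strand of GRCh38.p14, from RefSeq: chr7:16804950-16805249 for AGR2 and chr7:16881934-16882233 for AGR3. The AGR2 window lies inside the GENCODE locus given above, whose upstream end on the minus strand is at 16833433. It is therefore the RefSeq start and not the start of that locus, and which start T47D uses was not tested. A search of both strands gave the capitals. In the AGR2 start they mark AGATAA, the letters that GATA factors are known to bind. In the AGR3 start they mark a TATA box, spelled TATAAA.
AGR2: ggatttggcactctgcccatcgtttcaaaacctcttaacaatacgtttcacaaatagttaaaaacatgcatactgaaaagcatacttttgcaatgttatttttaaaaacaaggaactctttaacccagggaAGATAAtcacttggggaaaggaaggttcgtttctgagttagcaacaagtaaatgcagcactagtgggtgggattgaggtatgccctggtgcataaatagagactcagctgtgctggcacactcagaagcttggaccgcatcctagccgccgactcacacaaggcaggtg
AGR3: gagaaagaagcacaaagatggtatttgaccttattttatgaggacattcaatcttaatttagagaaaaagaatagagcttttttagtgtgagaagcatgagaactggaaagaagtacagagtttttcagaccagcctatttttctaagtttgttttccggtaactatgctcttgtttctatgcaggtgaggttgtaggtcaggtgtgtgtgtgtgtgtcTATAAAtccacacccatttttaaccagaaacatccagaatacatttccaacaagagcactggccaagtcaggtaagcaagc
The GATA motif began 119 bases before the AGR2 start and the TATA box 31 bases before the AGR3 start, and neither overlapped another motif searched. AGATAA was present in 10.3% and TATAAA in 11.5% of all 35116 promoters in the table. Promoters of 7 of the 10 genes matched, all but KRT18, KRT19 and TFF3. Of the other motifs searched, the AP-1 motif TGANTCA was found at GATA3 (7.71% of all promoters), the GC box GGGCGG at FOXA1, GATA3 and XBP1 (45.0%), and the endoplasmic reticulum stress element at XBP1 (0.0769%). The forkhead motif TGTTTAC, held by 3.42% of all promoters, was in none of the 7 genes' windows. These matches are descriptions of letters only.

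TFF3 (chr21:42311667-42315651, minus strand), a mucosal repair peptide and classic estrogen-responsive gene, had the largest fold of the 10 genes in T47D. It measured 6.141, 5.796 and 6.513 CPM in the control libraries, 3.988, 3.936 and 3.910 CPM at day 3, and 2.884, 4.237 and 2.716 CPM at day 15. Every induced library was below every control library, and replicate 2 of day 15 was above all day 3 libraries. The fold was -0.92 at day 15 (SE 0.138, adjusted p = 0.000535, limma), a change of -47.2% that was called in every alternative run and was -1.12 without replicate 2. TFF3 was carried by 130 to 293 reads a library. The day 3 fold was -0.63 (SE 0.138, adjusted p = 0.0283), a call lost without any 1 of the 6 libraries compared (adjusted p = 0.0877 to 0.153), with folds of -0.59 to -0.67.

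TFF1, the trefoil neighbour 46.6 kb away on the same strand, was lower in T47D too. It measured 1.791, 1.383 and 1.755 CPM at day 15 against 3.824, 4.075 and 3.707 CPM in the control libraries, with a fold of -1.21 (SE 0.134, adjusted p = 3.42e-05). In TFF1 replicate 2 of day 15 was the lowest of its group, whereas in TFF3 it was the highest. At day 3 all TFF1 libraries lay below the control libraries, with a fold of -0.52 (SE 0.134, adjusted p = 0.073, limma) that was not called. ESR1, the estrogen receptor itself, measured 244.5, 246.1 and 253.0 CPM at day 15 against 279.1, 279.6 and 273.3 CPM in the control libraries, with a fold of -0.16 (SE 0.0293, adjusted p = 0.0023). At day 3 ESR1 overlapped the control libraries, at 277.3, 277.1 and 269.7 CPM, with a fold of -0.01 (SE 0.0293, adjusted p = 0.958, limma).

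**Figure D3:**
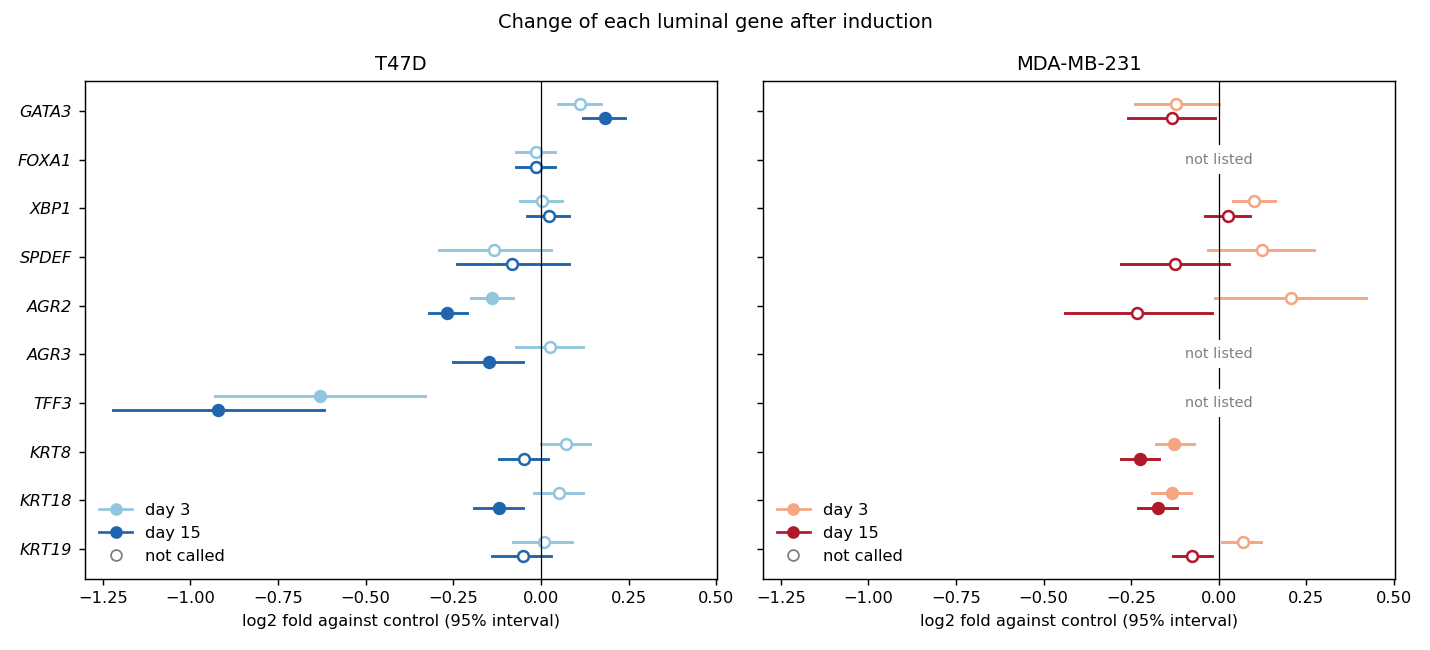
Log2 fold of day 3 and day 15 against control for each gene, T47D on the left and MDA-MB-231 on the right, with 95% intervals; filled points were called. In T47D the secretory genes AGR2, AGR3 and TFF3 lie to the left of 0 at day 15 and GATA3 lies to the right, while in MDA-MB-231 the called points are KRT8 and KRT18.

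KRT8 (chr12:52897187-52949954, minus strand), the type II keratin of simple epithelia, was lower in MDA-MB-231 at both times. It measured 385.7, 381.6 and 357.6 CPM in the control libraries, 341.7, 348.9 and 339.1 CPM at day 3, and 323.4, 323.6 and 315.5 CPM at day 15. The 3 groups did not overlap and stepped down with time. The day 15 fold was -0.22 (SE 0.0261, adjusted p = 1.69e-06, limma), a change of -14.4% that was called in every alternative run. The day 3 fold of -0.13 (SE 0.0261, adjusted p = 0.00629) was lost without control replicate 1 or 2 or day 3 replicate 1 or 3 (adjusted p = 0.0561 to 0.0938). Day 15 was below day 3 by -0.10 (SE 0.0261, adjusted p = 0.029), lost without day 3 replicate 1 or 2 or day 15 replicate 1 or 3 (adjusted p = 0.0743 to 0.167).

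KRT18 (chr12:52948871-52952901, plus strand) encodes the type I partner that pairs with KRT8 in the filament. In MDA-MB-231 it measured 402.6, 388.2 and 372.8 CPM in the control libraries, 360.7, 349.2 and 349.5 CPM at day 3, and 339.3, 354.5 and 337.4 CPM at day 15. Both induced groups lay below all control libraries and overlapped each other. The fold was -0.17 at day 15 (SE 0.0269, adjusted p = 0.000113, limma), called in every setting except limma without trend and robust moderation (adjusted p = 0.0688). At day 3 it was -0.13 (SE 0.0269, adjusted p = 0.00457), a call lost without control replicate 1 or day 3 replicate 2 (adjusted p = 0.0618 and 0.0624).

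In T47D both keratins were higher at day 3 and lower at day 15 on average, and 1 of these differences from control was called, that of KRT18 at day 15. KRT8 measured 2230, 2277 and 2344 CPM in the control libraries, 2399, 2369 and 2425 CPM at day 3, and 2215, 2320 and 2091 CPM at day 15. Its fold of 0.07 at day 3 (adjusted p = 0.532) was not called, although the groups did not overlap. At day 15 the fold was -0.05 (SE 0.0345, adjusted p = 0.429) with all libraries and -0.09 (SE 0.0225, adjusted p = 0.00527) without replicate 2.

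KRT18 in T47D measured 1286, 1322 and 1365 CPM in the control libraries, 1376, 1367 and 1376 CPM at day 3, and 1214, 1270 and 1175 CPM at day 15. Day 15 lay below the control libraries and day 3 above them. The day 15 fold of -0.12 (SE 0.0321, adjusted p = 0.0279) was lost without control replicate 2 or 3 or day 15 replicate 1 or 3 (adjusted p = 0.0624 to 0.126). Against day 3 the fold was -0.17 (SE 0.0321, adjusted p = 0.00494), a call lost only in limma without trend and robust moderation (adjusted p = 0.0647).

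The KRT8 and KRT18 responses differed between the lines at day 3. The difference, T47D minus MDA-MB-231, was 0.20 for KRT8 (SE 0.0463, adjusted p = 0.0199) and 0.19 for KRT18 (SE 0.0449, adjusted p = 0.0238). The KRT8 call was lost without control replicate 1 or 2 or day 3 replicate 1 or 3 of either line (adjusted p = 0.0525 to 0.0781). The KRT18 call was lost without control replicate 1 or 2 of either line, without day 3 replicate 2 or 3 of MDA-MB-231, or without any 1 day 3 library of T47D (adjusted p = 0.0509 to 0.0907). At day 15 the difference was 0.18 for KRT8 (SE 0.0463, adjusted p = 0.0185), lost without control replicate 1 or 2 of MDA-MB-231 or control replicate 1 of T47D (adjusted p = 0.0582 to 0.0619), and 0.05 for KRT18 (adjusted p = 0.503), which was not called.

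Because the 2 proteins pair, the log2 level of KRT8 minus that of KRT18 was also taken within each library. In T47D it was 0.868, 0.869 and 0.832 at day 15 against 0.794, 0.785 and 0.780 in the control libraries, and the groups did not overlap. In MDA-MB-231 it was -0.070, -0.132 and -0.097 at day 15 against -0.062, -0.025 and -0.060 in the control libraries, also without overlap. The shift was thus up in T47D, by 0.070, and down in MDA-MB-231, by -0.050. Each had an exact two-sided permutation p of 0.1, the smallest that 3 against 3 libraries allow. At day 3 the exact permutation p was 0.2 in T47D and 0.8 in MDA-MB-231.

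The genes KRT8 and KRT18 overlap by 1084 bases on opposite strands, so reads from the shared stretch cannot be assigned without strand. KRT8 also has many processed pseudogenes: 4 of them were listed in T47D, at 33.1 CPM in sum, and 3 in MDA-MB-231, at 7.61 CPM, so its level is uncertain by the reads that the counting split off.

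**Figure D4:**
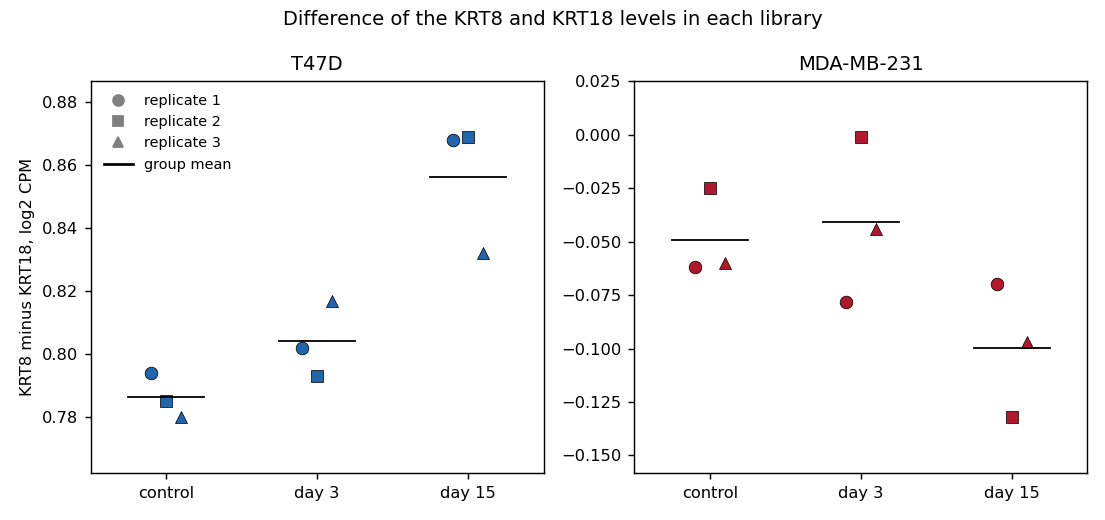
Log2 CPM of KRT8 minus that of KRT18 in every library by day, 1 panel per line, with points for libraries, bars for group means and a vertical scale of its own in each panel. Day 15 lies above control in T47D, at a mean of 0.856 against 0.786, and below control in MDA-MB-231, at -0.099 against -0.049.

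KRT19 (chr17:41523617-41528308, minus strand), a type I keratin of ducts and a common marker of circulating tumour cells, was not called against control in either line. In MDA-MB-231 it measured 146.4, 141.9 and 143.4 CPM in the control libraries, 152.1, 146.9 and 153.5 CPM at day 3, and 138.8, 137.7 and 133.0 CPM at day 15. Day 3 lay above and day 15 below the control libraries, so the 2 induced groups moved apart. Their difference, day 15 against day 3, was -0.14 (SE 0.0279, adjusted p = 0.00362), lost only in limma without trend and robust moderation (adjusted p = 0.113). In T47D it measured 1926, 2065 and 1814 CPM at day 15 against 1956, 1999 and 2057 CPM in the control libraries, with a fold of -0.05 (SE 0.0398, adjusted p = 0.472) and -0.10 (SE 0.0238, adjusted p = 0.00199) without replicate 2.

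Without replicate 2 of T47D day 15, 8 of the 10 genes were called at day 15 against control, 1 higher and 7 lower, beside 25.1% of all genes. SPDEF, KRT8 and KRT19 joined the 5 called with all libraries, and FOXA1 and XBP1 were not called either way. Against day 3, 7 of the 10 were called without it, beside 17.6% of all genes, and 3 were called with it. The 4 added were GATA3, higher with a fold of 0.09 (adjusted p = 0.00654), and 3 lower ones, TFF3 with -0.49 (adjusted p = 0.00196), KRT8 with -0.16 (adjusted p = 6.17e-06) and KRT19 with -0.11 (adjusted p = 0.00137). The count over the members therefore rested on this library, as did the count over all genes. Replicate 2 had the highest level of its group for SPDEF, TFF3, KRT8, KRT18, KRT19 and XBP1, and the lowest for GATA3, FOXA1 and AGR2.

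Related genes were counted by lists, with the named ones being up to 3 called genes of a list with the largest folds. Among 20 other luminal transcription factors listed in T47D, 5 were higher and 3 lower at day 15, beside 739 of all 14768 genes higher and 920 lower. With replicate 2 of day 15 left out, 8 were higher and 4 lower, beside 1676 of all genes higher and 2029 lower (25.1% called). RUNX1 rose by 0.25 (adjusted p = 9.41e-05), while the LIM-domain protein LMO4 fell by 0.64 on the log2 scale (adjusted p = 1.98e-07). At day 3 the progesterone receptor PGR was the 1 called, with a fold of -0.13 (adjusted p = 0.035). In MDA-MB-231, 1 of 12 listed was called at day 15, the epithelial ETS factor ELF3, with a fold of -0.71 (SE 0.117, adjusted p = 0.000248). Of the GATA and FOXA relatives, limma called 0 of 3 in T47D and 0 of 4 in MDA-MB-231 at day 15, with 0 and 1 at an unadjusted p under 0.05.

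Other luminal surface and secreted markers fell in T47D at day 15 in 7 of 20 cases, beside 6.23% of all genes lower, and the other 13 were not called. Besides TFF1 they included PIP, a secreted apocrine protein, with a fold of -0.43 (adjusted p = 0.000279), and the zinc-binding glycoprotein AZGP1, with -0.39 (adjusted p = 0.000123). At day 3, 3 of the 20 were lower, beside 0.718% of all genes: PIP with -0.51 (adjusted p = 9.63e-05), AZGP1 with -0.28 (adjusted p = 0.00566) and the prolactin receptor PRLR with -0.15 (adjusted p = 0.0379). In MDA-MB-231, 2 of 15 were lower at day 15, beside 4.77% of all genes: the mucin MUC1 with -0.32 (adjusted p = 0.042) and the tight junction protein CLDN4 with -0.30 (adjusted p = 0.0495). Without replicate 2 of day 15, 10 of the 20 were lower in T47D and 1 higher, beside 2029 of all 14768 genes lower and 1676 higher. The list's median fold was -0.10 in T47D and -0.06 in MDA-MB-231, beside 0 for all genes.

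Other keratins were lower in T47D at day 15 in 6 of 9 cases, beside 6.23% of all genes lower, and the other 3 were not called. Without replicate 2 of day 15, 7 of 9 were lower, beside 2029 of all 14768 genes lower. The median fold of the list was then -0.28 in place of -0.23. KRT13, a keratin of stratified mucosa, had a fold of -1.34 (SE 0.145, adjusted p = 2.77e-05), KRT15, a basal keratin, -0.47 (adjusted p = 0.000601) and KRT23 -0.23 (adjusted p = 0.000689). KRT23 was also the 1 of 9 called at day 3, with -0.20 (adjusted p = 0.00598). In MDA-MB-231, 1 of 7 was called at day 15: KRT7, a simple-epithelial keratin like the members, with -0.20 (adjusted p = 0.00998).

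The linker and desmosome genes, which anchor keratin filaments at cell contacts, were lower in MDA-MB-231 at day 15 in 4 of 10 cases. Of all genes 4.77% were lower there. Periplakin (PPL) had a fold of -0.38 (SE 0.0469, adjusted p = 5.12e-06), plakoglobin (JUP) -0.20 (adjusted p = 0.0152) and plakophilin 2 (PKP2) -0.14 (adjusted p = 0.00508). PPL and PKP2 were already lower at day 3, with -0.26 (adjusted p = 0.00184) and -0.16 (adjusted p = 0.00443), as 2 of 10, beside 0.874% of all genes lower. In T47D, 3 of 12 were higher and 1 lower at day 15: PKP2 fell, with -0.35 (adjusted p = 0.000659), while desmocollin 2 (DSC2) and desmoglein 2 (DSG2) rose, with 0.20 (adjusted p = 0.041) and 0.18 (adjusted p = 0.00246). Without replicate 2 of day 15, 4 were higher and 3 lower in T47D, beside 25.1% of all genes called.

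Of the basal and myoepithelial markers, the genes of the outer cell layer of the duct, 4 of 11 were lower in T47D at day 15, beside 6.23% of all genes. Among them were EGFR with -0.19 (adjusted p = 0.00985) and P-cadherin (CDH3) with -0.18 (adjusted p = 0.0289). The count was 5 of 11 lower without replicate 2 of day 15, beside 2029 of all 14768 genes lower. The median fold was then -0.18 in place of -0.10. In MDA-MB-231 at day 15, 3 of 11 were lower and 2 higher, beside 4.77% of all genes lower and 3.42% higher. TRIM29 had -0.41 (adjusted p = 0.00277), S100A2 -0.29 (adjusted p = 0.000766) and the laminin chain LAMA3 0.15 (adjusted p = 0.00277). S100A2 was the 1 of 11 called at day 3, with -0.25 (adjusted p = 0.00688). Of the 7 mesenchymal markers listed in MDA-MB-231, 2 were higher at day 15, VIM with 0.11 (adjusted p = 6.98e-05) and ZEB1 with 0.15 (adjusted p = 0.00734), 1 was lower, FN1 with -0.08 (adjusted p = 0.0277), and 4 were not called, with a median fold of 0.03. In T47D both listed ones were lower, TWIST1 with -0.43 (adjusted p = 0.0116) and FN1 with -0.28 (adjusted p = 0.00975).

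Of the secretory pathway genes that depend on XBP1, 3 of 26 were higher in MDA-MB-231 at day 3, beside 0.895% of all genes higher: SEC24D, a vesicle coat protein, with 0.12 (adjusted p = 0.0351), SEL1L, of the degradation complex, with 0.11 (adjusted p = 0.0271), and the chaperone HSPA5 with 0.07 (adjusted p = 0.0407). At day 15, 2 of 26 were higher, beside 3.42% of all genes, DNAJB11 with 0.11 (adjusted p = 0.0475) and SEL1L with 0.09 (adjusted p = 0.0332). In T47D at day 15, 2 of 26 (7.69%) were lower, near the 6.23% of all genes lower. They were the co-chaperone DNAJB9 with -0.26 (adjusted p = 0.00318) and HERPUD1 with -0.17 (adjusted p = 0.0373). Without replicate 2 of day 15, 6 were lower and 2 higher in T47D, 30.8% of the list, near the 25.1% of all genes called.

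Among the disulfide isomerase relatives of AGR2 and AGR3, 1 of 15 (6.67%) was lower in T47D at day 15, near the 6.23% of all genes lower. It was TMX3, with -0.14 (adjusted p = 0.0484). Without replicate 2 of day 15, 2 of 15 (13.3%) were lower, beside 2029 of all 14768 genes lower. In MDA-MB-231 limma called 0 of 15, with 2 at an unadjusted p under 0.05. Of the goblet and mucus genes, which share SPDEF and TFF3 as markers, 1 of 6 was lower in T47D at both times, the glycosyltransferase GALNT7, with -0.34 at day 3 (adjusted p = 0.0127) and -0.26 at day 15 (adjusted p = 0.0224). Without replicate 2 of day 15, 2 of 6 were lower at day 15, beside 2029 of all 14768 genes lower. In MDA-MB-231 limma called 0 of 8 at day 15, with 2 at an unadjusted p under 0.05.

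**Figure D5:**
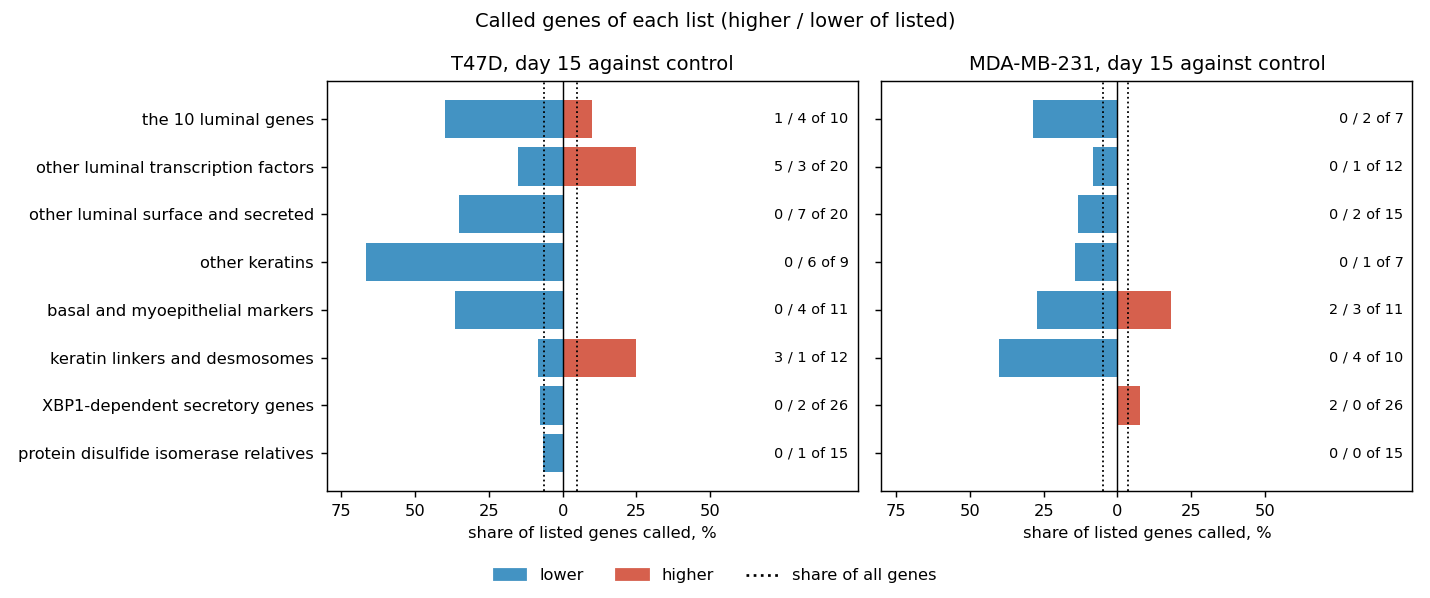
Share of the listed genes of each list called higher (red) and lower (blue) at day 15 against control, T47D on the left and MDA-MB-231 on the right, with dotted lines at the shares of all genes and counts at the right. In T47D the other keratins have 6 of 9 genes lower and the other luminal transcription factors have 5 of 20 higher.

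Markers of other cell types were checked in both lines. Of 8 fibroblast markers, 2 were listed in T47D (COL1A1 and COL3A1), with a sum of 24.7 to 27.3 CPM at day 15 against 34.5 to 40.1 CPM in the control libraries, and 4 in MDA-MB-231, at 13.6 to 14.1 CPM against 15.6 to 16.7 CPM. The leukocyte markers had 3 of 8 listed in each line, at 1.61 to 2.04 CPM at day 15 against 1.30 to 1.76 CPM in control T47D, and at 72.2 to 79.4 CPM against 72.8 to 75.1 CPM in MDA-MB-231. Endothelial markers had none listed in T47D and 2 of 7 in MDA-MB-231, at 9.16 to 9.21 CPM at day 15 against 9.62 to 10.3 CPM in the control libraries. The fibroblast genes listed in MDA-MB-231 were COL1A1, COL1A2, LUM and PDGFRB, and the leukocyte genes were PTPRC, CD14 and CD68 there and included CD14 and CD68 in T47D. DCN and CD3E were not listed in either line. The summed level of replication-dependent histone genes, a sign of RNA quality, was 97.4 to 103 CPM at day 15 against 89.7 to 94.2 CPM in control T47D, and 28.1 to 33.7 CPM against 32.6 to 34.4 CPM in MDA-MB-231, and their part in the member results was not tested.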

How the data were processed

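RNA of 18 libraries, 3 in each of 6 groups, was sequenced from 2 cell lines. The deposited tables, 1 per line, hold log2 CPM per gene and library, as the values show. The authors aligned reads with STAR, counted them with featureCounts and used limma on GRCh38.p13, per the submitters' processing notes. The sources used here do not give the normalization, low-gene filter or strand setting. Each deposited log2 CPM value gave a whole read count within 0.1 after removal of a pseudocount of 3 reads, and CPM and depth were computed from these reads. A log2 fold is on the log2(CPM + pseudocount) scale, the pseudocount being 0.06882 CPM in MDA-MB-231 and 0.0661 CPM in T47D, and understates changes of low genes.

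Per line, limma 3.58.1 (R 4.3.3, statmod 1.5.0) was fitted to all 9 deposited libraries with group means and with trend and robust moderation, and p-values were Benjamini-Hochberg adjusted over all genes of the table, 14308 or 14768. The difference between lines was the interaction over the 12666 genes in both tables, with all 18 libraries. Tables were scaled separately, so levels across lines are described and not tested. The fits were tested on simulated data. The per-kilobase levels use the longest principal transcript of GENCODE release 29. The genes and lists were chosen with earlier results of these data known. All members were named, and from each list up to 3 called genes per comparison with control with the largest folds at a mean log2 CPM of 1 or more. Of the genes so named, 2 are not reported here. ESR1, VIM, G0S2, TFF1 and GATA3-AS1 were added as markers or neighbours. The alternatives were other moderation, filter, scaling, pseudocount, a replicate block, each library left out, and, chosen after seeing the data, voom weights.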

Additional observations from a re-analysis of the deposited data

Results flagged for a closer look

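The responses of the lines, T47D minus MDA-MB-231, differed by a limma interaction test for 3 of the 7 genes listed in both, 3 at day 3 and 2 at day 15. Of all 12666 genes in both tables, 2.46% were called at day 3 and 9.44% at day 15. The T47D response was the higher one in 1.41% and 4.07%. GATA3 differed by 0.23 at day 3 (adjusted p = 0.0326) and by 0.32 at day 15 (adjusted p = 0.00109): at day 15 its fold was 0.18 in T47D and -0.13 in MDA-MB-231, the second not called. KRT8 differed by 0.20 at day 3 (adjusted p = 0.0199) and by 0.18 at day 15 (adjusted p = 0.0185), with day 15 folds of -0.05 in T47D, not called, and -0.22 in MDA-MB-231. KRT18 differed by 0.19 at day 3 (adjusted p = 0.0238), with folds of 0.05 in T47D, not called, and -0.13 in MDA-MB-231. The GATA3 difference at day 15 is the 1 of these 5 that kept its call in every alternative run.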

How the results depend on the processing

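No called member result turned its direction in any alternative run, and 5 of 23 calls held in all of them. Folds near 0 that were not called did change sign in some, such as SPDEF in T47D at day 15 against day 3, at -0.06 without day 15 replicate 2 and 0.05 with it. The log2(CPM + 1) scale and the filter at a mean log2 CPM of 0 lost no member call, and voom weights lost 2. Limma without trend and robust moderation lost 18. It left 0 of 7 members called in MDA-MB-231 at day 3, 1 at day 15 and 0 between the times, 0 of 10, 3 and 0 in T47D, and 0 and 1 for the difference between lines at day 3 and day 15. Calls over all genes fell too, to 63, 232 and 32 in MDA-MB-231 from 253, 1173 and 763. In T47D they fell to 210, 1216 and 549 from 277, 1659 and 824, and for the difference between lines to 265 and 1075 from 311 and 1196. At an unadjusted p under 0.05, limma as reported had 4, 5 and 5 members in MDA-MB-231 and 3, 5 and 5 in T47D. Many other genes pass that threshold: GATA3 in MDA-MB-231 at day 15, with an unadjusted limma p of 0.0346, ranked 2923 of 14308 genes. At day 3, with 0.0529, it ranked 1998. In T47D, KRT8 at day 3 (0.06) ranked 1663 of 14768 genes, and TFF3 at day 15 against day 3 (0.0541) ranked 2752. The share of all genes under that threshold was not counted, so the unadjusted counts of members and lists have no background to be read against. Median scaling lost 5: SPDEF and KRT8 in MDA-MB-231 between the times, which left 2 in place of 4, AGR3 in T47D at day 15 against control and against day 3, and the GATA3 difference between lines at day 3. Leaving out 1 library gave 0 to 2 members in MDA-MB-231 at day 3, 2 to 2 at day 15 and 1 to 4 between the times. Calls over all genes moved too, at 119 to 259, 457 to 1897 and 124 to 1664. In T47D leaving out 1 library gave 0 to 1, 3 to 8 and 1 to 7 members, beside 182 to 214, 930 to 3705 and 403 to 2604 of all genes. For the difference between lines it gave 0 to 2 members at day 3 and 1 to 2 at day 15, beside 232 to 314 and 860 to 1899 of all genes. The highest member counts for T47D at day 15, 8 and 7, came without day 15 replicate 2, where 3705 and 2604 genes in all were called, against 1659 and 824 with it.

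The main fits did not pair libraries by replicate number. Deviations from group means in MDA-MB-231 correlated at -0.03 to 0.28 between libraries of the same number and at -0.26 to 0.19 between others. In T47D these ranges were -0.41 to 0.07 and -0.27 to 0.39. Libraries of the same number were thus not more alike in T47D. In MDA-MB-231 their range lay higher than that of the others, and whether the numbers mark a pairing there was not tested. With the number as a replicate block, 0 members were called in T47D at day 3 and 3 at day 15, and XBP1 at day 3 (adjusted p = 0.0415) and KRT19 at day 15 (adjusted p = 0.0311) were added in MDA-MB-231. Over all genes the block gave 637, 2273 and 1788 calls in MDA-MB-231, against 253, 1173 and 763 without it, and 214, 1202 and 511 in T47D, against 277, 1659 and 824. The edgeR and DESeq2 alternatives were not run, since the tables hold log2 values. The KRT8 to KRT18 difference was recomputed only on the log2(CPM + 1) scale and with 1 library left out. It moved by less than 1 SD in these runs. Leaving out 1 of 3 libraries cannot move a group mean by 1 SD of that group. These runs therefore do not show whether the difference is stable. Depth limits most the values of AGR2 and SPDEF in MDA-MB-231 and of TFF3 in T47D, which rest on 130 to 534 reads.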
